A study of Homo sapiens with 2 samples.

Results

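The short arms of the acrocentric chromosomes 13, 14, 15 and 22 carried 1012 of the 24258 TRF2 peaks listed for HCT116 cells, or 4.17% of the list. A peak was counted here when its summit, the position of highest signal, lay below the centromere band of its chromosome in hg38. That limit was 16.5 Mb on chromosome 13, 16.1 Mb on chromosome 14, 17.5 Mb on chromosome 15 and 13.7 Mb on chromosome 22. Chromosome 13 held 710 members (70.2%), chromosome 22 held 260 (25.7%), chromosome 15 held 30 (2.96%) and chromosome 14 held 12 (1.19%). HCT116 is a human colorectal carcinoma line. The study compared 1 library of chromatin immunoprecipitated (IP) with an anti-TRF2 antibody against 1 input library of the same line, made without antibody. The labels name no treatment, while the name of the peak list mentions a control siRNA. Both libraries came from cells fixed with 1% formaldehyde 72 h after plating, in chromatin sonicated to about 300 to 400 bp. Since IP and input were 1 library each, there is no replicate check, every value describes these libraries, and the intervals cover counting error only.

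TRF2, encoded by TERF2, is a subunit of shelterin, the complex that covers the double-stranded TTAGGG repeats of telomeres and keeps chromosome ends from being treated as breaks. Acrocentric chromosomes have their centromere close to an end, and their short arms carry the ribosomal RNA gene arrays of the nucleolus, satellite repeats and duplicated segments that several of these arms share. Large parts of these arms are unknown bases in hg38, and centromeres are filled with modelled arrays of alpha satellite, so reads from repeats can have several equally good positions. The sources used here do not say how such reads were placed. The first members lay at 16001500 on chromosome 13, 16044379 on chromosome 14, 17000679 on chromosome 15 and 10691380 on chromosome 22. The true ends of these arms are therefore not among the members. The sequence under the members was not analysed here.

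Each member has a pair of depths: the read pileup at the summit in the IP library, and the input background there, the number of reads that the input library predicts. The background is not a count of input reads at the summit: 29.5% of the whole list shared its lowest value, 1.05 when rounded. The fold is the authors' own value for a peak, their ratio of these depths after adding 1 read to each. Over all members the median fold was 4.39 (order-statistic 95% interval 4.38 to 4.56; range 1.88 to 30.7), against 4.01 (3.99 to 4.07) in the 23246 other peaks. The median pileup was 14 reads (13 to 14) in members and 11 in the other peaks, and the median background was 1.77 (1.71 to 1.85) in members and 1.69 in the others. A fold of 5 or more was reached by 369 members (36.5%, exact binomial interval 33.5% to 39.5%), against 25.2% of the whole list. A −log10 q of 5 or more was reached by 377 (37.3%, interval 34.3% to 40.3%), against 30.0% of the list. A q-value under 0.05 was reached by 888 (87.7%), against 79.3% of the list. Chromosome 13 carried these higher shares. Without it, 22.5% of the remaining 302 members had a fold of 5 or more (17.9% to 27.7%) and 17.2% a −log10 q of 5 or more (13.1% to 21.96%). The first interval includes the share of the whole list and the second lies below it.

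**Figure D1:**
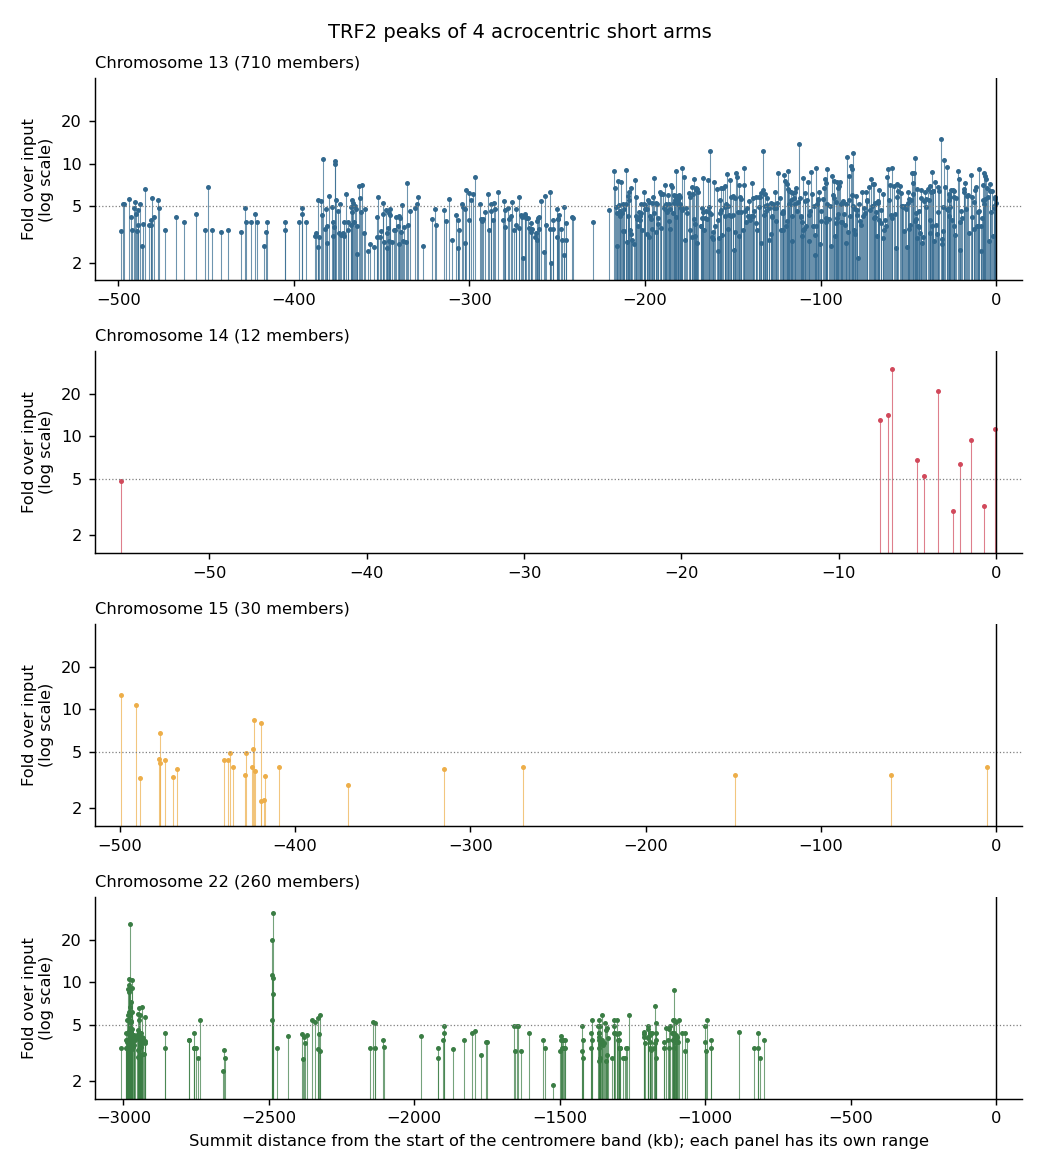
Fold over input (log scale) of each member against the distance of its summit from the start of the centromere band in kb, with 1 panel and 1 distance range per chromosome; the dotted line marks a fold of 5. Chromosome 13 is filled most densely in its last 217 kb, chromosome 14 in its last 10 kb, and chromosomes 15 and 22 have separate blocks far from the band.

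The chromosome 13 members formed a field that grew denser towards the start of the centromere band when counted in wide bins. Successive bins of 100 kb held 43, 107, 113, 225 and 222 summits. At a finer scale the density was uneven and did not rise steadily. Whether modelled centromere arrays begin before the limit of 16.5 Mb was not analysed here. These 710 members are therefore short-arm peaks by band position alone. Between 16.0 and 16.1 Mb there were 43 summits, or 430 per Mb (exact Poisson interval 311 to 579). Between 16.1 and 16.3 Mb the density was 1100 per Mb (959 to 1255), and between 16.3 and 16.5 Mb it was 2235 per Mb (2033 to 2452). The densest part began at position 16282604, after a sparse stretch with 4 summits in 25 kb. From there to the limit 489 members lay in 217 kb, or 2249 per Mb, against 786 per Mb among the 221 members before it. Strength changed in the same direction: the median fold was 3.90 in the first segment, 4.19 in the second and 5.16 in the third, and a fold of 5 or more was reached by 20.9%, 25.5% and 52.8% of summits in that order. The median input background was 1.13, 2.82 and 2.26 in the same order, so the second segment had a higher median background than the third and a lower median fold. That position and the segment limits were chosen after the values were seen.

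The dense field ran on past the limit of the centromere band. The last 200 kb of the short arm held 2235 summits per Mb (2033 to 2452), against 2137 per Mb (2063 to 2212) among the 3205 peaks from 16.5 to 18 Mb, inside the centromere band. Peaks per 100 kb were 225 and 222 in the last bins of the short arm and 191 to 234 in the 15 bins beyond the limit. The field ended within the bin from 18 to 18.1 Mb, which held 105 peaks, and the remaining 0.8 Mb of the band held 7. The members nearest the limit, at 16499557 and 16499744, had folds of 5.604 and 5.26, and the nearest peaks beyond it, at 16500599 and 16501602, had folds of 5.94 and 3.18. The intervals of the density on either side of the limit overlapped, and the median fold was 5.16 (4.91 to 5.26) before it and 4.83 (4.76 to 4.90) beyond it. The fold intervals thus did not overlap over that whole stretch, but did for its part from 16.5 to 17.7 Mb, where the median was 4.91 (4.86 to 4.97).

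**Figure D2:**
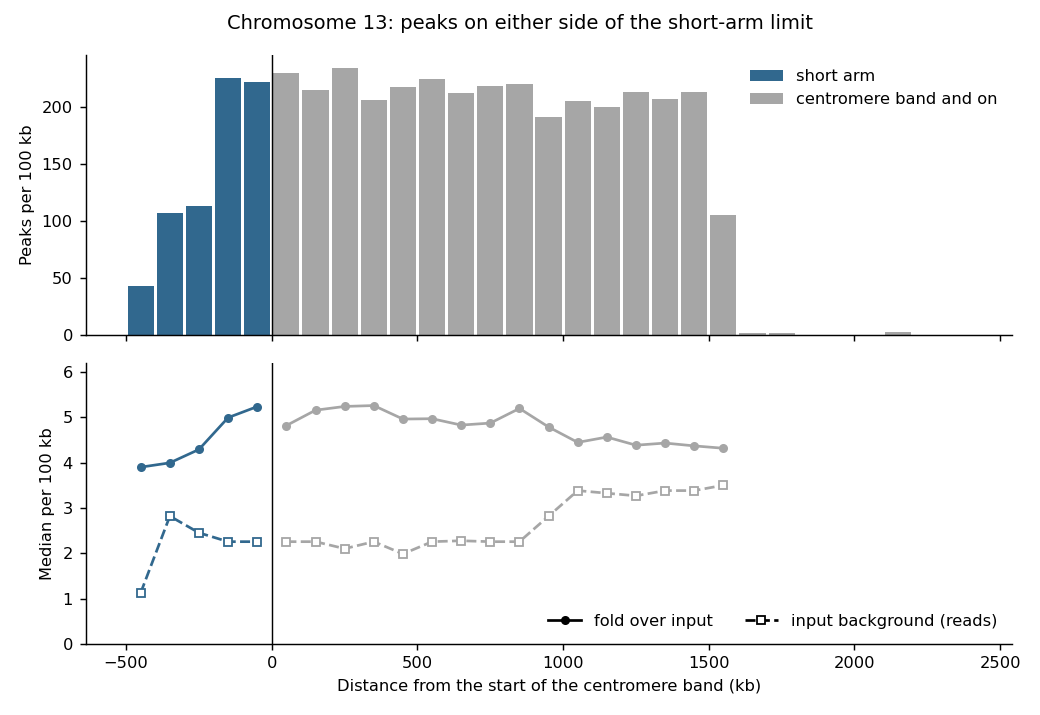
Chromosome 13 in bins of 100 kb, against distance from the start of the centromere band in kb. The upper panel gives the number of peaks per bin, and the lower panel the median fold (filled circles) and the median input background in reads (open squares) for bins with at least 20 peaks. Counts reach 225 and 222 on the short arm and stay between 191 and 234 for 15 bins beyond the limit.

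Single members of chromosome 13 were moderate in strength. The highest fold was 14.8, in the peak from 16467954 to 16468587, with 39 reads (exact Poisson interval 27.7 to 53.3) over a background of 1.70. The next was 13.7, from 16387409 to 16387917 with 36 reads. A pair of members tied at 12.3, each with 39 reads over 2.26, from 16336724 to 16336966 and from 16367163 to 16367285. The highest pileup of the arm was 63 reads over a background of 6.77, from 16415779 to 16416029, which gave a fold of 8.24. The widest member, 1079 bp from 16250937 to 16252015, had 55 reads over a background of 11.8 and a fold of 4.36. These 4 members of highest fold thus stood over backgrounds of 2.26 or less, and the deepest and the widest over more input. The median width was 146 bp (135 to 155) on chromosome 13, against 104 bp (78 to 156) on chromosome 14, 97 bp (73 to 122) on chromosome 15 and 100 bp (93 to 111) on chromosome 22. The interval of chromosome 14, with its 12 members, included the width of chromosome 13, and the other intervals did not. Members covered 26.5% of the distance between the first and the last summit on chromosome 13, against 2.41%, 0.659% and 1.56% on chromosomes 14, 15 and 22. These distances include any unknown bases.

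Chromosome 14 had the fewest members and the strongest as a group, 11 of the 12 within 10 kb of the limit. The lone other member, at 16044379, had 9 reads and a fold of 4.88. In order from 16092587, the first 3 of the 11 had 26, 28 and 60 reads over a background at its floor of 1.05, the lowest value the list holds. Their folds were 13.2, 14.1 and 29.8. The next 2, at 16094954 and 16095437, were weaker, with 13 and 10 reads and folds of 6.83 and 5.23. The summit at 16096274 had 67 reads over 2.26 and a fold of 20.9. Then the input rose as well: the summits at 16097249, 16097692 and 16098426 had 29, 52 and 99 reads over backgrounds of 9.03, 7.33 and 9.59, for folds of 2.99, 6.36 and 9.44. The last members, at 16099197 and 16099906, had folds of 3.22 and 11.3. A fold of 5 or more was reached by 9 of the 12 (75.0%, exact interval 42.8% to 94.5%). The series went on past the limit, where the next summit, at 16100436, had 57 reads and a fold of 16.0. The 100 kb beyond the limit held 29 peaks, the last at 16140253. The median fold was 8.14 in the 12 members and 4.30 in these 29 peaks.

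The strongest member of all stood on chromosome 22, in a group near a block of pseudogenes that chromosome 14 also carries. From 11212865 to 11213456 a peak 592 bp wide had 62 reads (exact Poisson interval 47.5 to 79.5) over the background floor, a fold of 30.7. Around it 5 more summits lay within 4 kb, and all 6 had the background at its floor. From 11211207 upwards their pileups were 22, 10, 40, 21, 62 and 16 reads and their folds 11.2, 5.37, 20.002, 10.7, 30.7 and 8.29. In the list the group stood apart: the next member towards the end of the arm was 162 kb away. Between the group and the pseudogene block there was 1 weak member, with 6 reads. How much of the 162 kb is unknown bases was not analysed here.

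Each block holds 7 annotated pseudogenes that pair off in opposite order. The paired genes derive from DUX4, a homeobox transcription factor gene (DUX4L48 with DUX4L41, DUX4L49 with DUX4L40), from PCMTD1 (PCMTD1P6 with PCMTD1P4) and from CDC27, which encodes a subunit of the anaphase-promoting complex (CDC27P6 with CDC27P7). The others are LOC107987204 with LOC102723688, LOC110467536 with LOC110467534 and RNA5-8SP with LOC110467520, a ribosomal RNA pseudogene on chromosome 14 and its counterpart by position. Over the 7 pairs the positions, read in opposite directions, stayed within 123 bp of each other. No member had its summit in any of these genes. Measured from the CDC27 pseudogene, away from the DUX4L pseudogenes, the first strong summit lay 42.9 kb out on chromosome 14 (CDC27P6, 16047787 to 16049736) and 43.4 kb out on chromosome 22 (CDC27P7, 11257793 to 11259748). The strongest summits were 43.7 kb out on chromosome 14 (fold 29.8) and 44.7 kb out on chromosome 22 (fold 30.7). The chromosome 22 group ended at 46.6 kb, where chromosome 14 had its second strongest member, at 46.5 kb. Beyond that, chromosome 14 had 5 more members and chromosome 22 none before 209 kb. Whether the sequence just beyond the chromosome 22 group is known in hg38 was not analysed here. Within the shared window the order and spacing of single summits differed, as the values above show. Another block of this kind on chromosome 22, with DUX4L42, PCMTD1P5, DUX4L43 and CDC27P8 (11623820 to 11625744), had no member in the 97.2 kb beyond CDC27P8. Whether that stretch holds unknown bases was not analysed here, so the absence is not a negative result for this block. The arrangement of the groups beside these blocks was noticed after the values were seen and is given as a description.

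**Figure D3:**
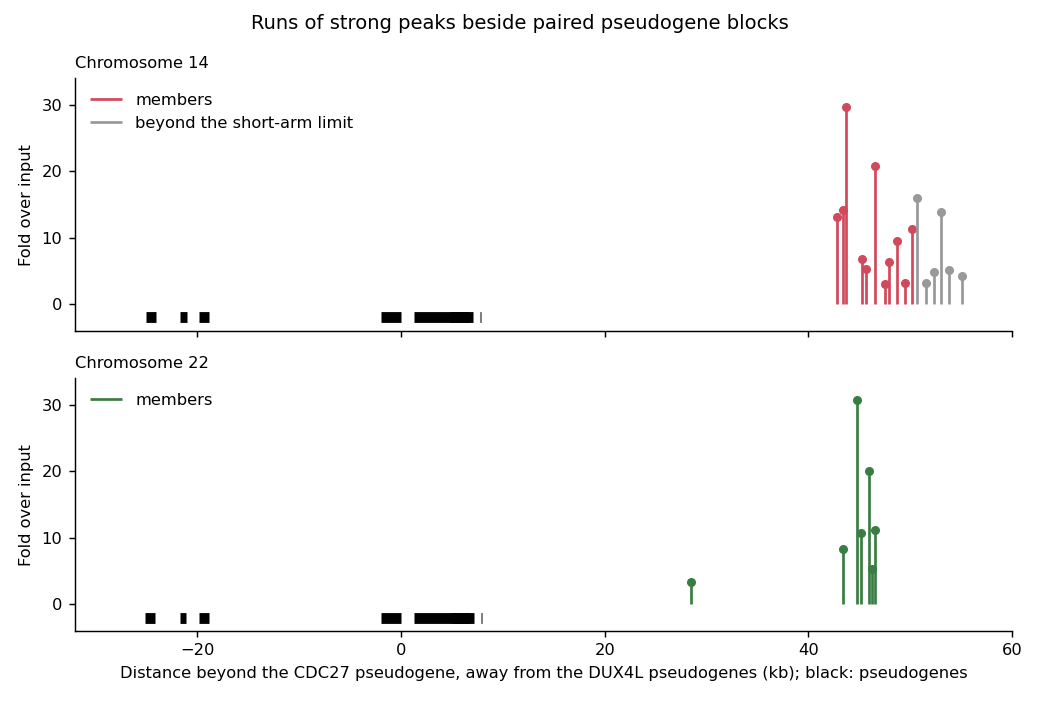
Fold over input of each summit against its distance in kb beyond the CDC27 pseudogene on chromosome 14 (CDC27P6) and chromosome 22 (CDC27P7), with the 7 paired pseudogenes as black bars. Strong members begin 42.9 kb out on chromosome 14 and 43.4 kb out on chromosome 22; grey summits on chromosome 14 lie beyond the short-arm limit.

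The rest of chromosome 22 split into separate blocks. The first, from 10707921 to 10774233, held 76 members in 66.3 kb, with a median fold of 4.37 and 25 members of fold 5 or more. Its core was the largest run of the arm, 34 summits no more than 1 kb apart over 15.1 kb (10715055 to 10730180), with a median fold of 5.28. Here 5 summits were deep, with 58 to 68 reads, but differed in input. The peak from 10721054 to 10721515 had 59 reads over a background of 1.34 and a fold of 25.7, the second highest of the arm. The peak at 10722989 had 61 reads over 12.4 and a fold of 4.62. At a like pileup the fold is lower where the input is deeper by construction, since the background is its divisor. The second block, from 12204731 to 12638182, held 109 members in 433 kb, all shallow, with 5 to 17 reads, a median of 8 and a highest fold of 8.78. The background was at its floor in 67 of these 109 (61.5%), against 18 of the 76 in the first block (23.7%). Between the 2 blocks, outside the group near the pseudogenes, most members were shallow. Exceptions included a run of 3 adjoining peaks from 11368920 to 11371575, which were 1271, 828 and 376 bp wide. They had 58, 48 and 40 reads over backgrounds of 9.50, 13.5 and 8.46, and folds of 5.62, 3.37 and 4.33. The first of them was the widest member of all 4 arms. After the member at 12902540 no peak was listed in the 797 kb to the limit, a stretch in which unknown bases were not located here. That last member had a fold of 3.90, and the nearest peak beyond the limit, at 15154569, had a fold of 5.17. The weakest member of all 4 arms, at 12178397, had 38 reads over a background of 19.7 and a fold of 1.88.

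On chromosome 15 the members gathered at the end of the listed positions farther from the centromere. Of the 30 members, 24 lay between 17000679 and 17090676, and the other 6 were spread over 364 kb with 5 to 7 reads each and folds of 2.93 to 3.90. The strongest 2 were also the outermost 2, from 17000607 to 17000740 with 33 reads and a fold of 12.6, and from 17009091 to 17009217 with 28 reads and a fold of 10.8, both over a background of 1.69. The third, from 17076692 to 17076780, had 18 reads and a fold of 8.46. A group of 4 summits between 17080597 and 17082660 was deep in both libraries. Their pileups were 79, 58, 26 and 29 reads over backgrounds of 9.03, 25.4, 10.7 and 7.90, and their folds 7.98, 2.24, 2.304 and 3.37. The first of these had the highest pileup of the arm and the second the highest background of all 1012 members. No member lay between 17494624 and the limit, and the next peak, beyond it, was at 17691117. The last member had a fold of 3.90 and that next peak a fold of 5.85.

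Pileup and background moved together, with chromosome 13 apart from the other arms in its input. Spearman's rho between them was 0.55 over the 710 members of chromosome 13, 0.60 over the 260 of chromosome 22 and 0.73 over the 30 of chromosome 15. These are descriptions: a listed peak has to exceed its background, and members of an arm share the libraries and, where they are close, can share reads, since neighbouring summits lay as little as 133 bp apart. The background was at its floor in 21 members of chromosome 13 (2.96%, exact interval 1.84% to 4.49%) and in 5 of 12 on chromosome 14, 15 of 30 on chromosome 15 and 129 of 260 on chromosome 22 (49.6%, 43.4% to 55.9%). The floor was held by 29.5% of the whole list. On chromosome 13 a fold of 5 or more was reached by 270 of the 479 members with a background above the floor and under 3, by 29 of the 210 with a background of 3 or more, and by 2 of the 21 at the floor. The order differed on chromosomes 14, 15 and 22 together, where it was reached by 31 of the 129 members with a background above the floor and under 3, by 10 of the 24 with 3 or more and by 27 of the 149 at the floor. The background enters the fold as a divisor, so these are linked by construction. A fold of 10 or more was reached by 24 members, 10 on chromosome 13, 7 on chromosome 22, 5 on chromosome 14 and 2 on chromosome 15, or 2.37% of members (1.53% to 3.51%). In the whole list 476 peaks reached it, or 1.96%, which lies within that interval. At the other end, 61 members had 5 or 6 reads, the smallest pileups listed, so weaker sites were not detectable at this depth.

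**Figure D4:**
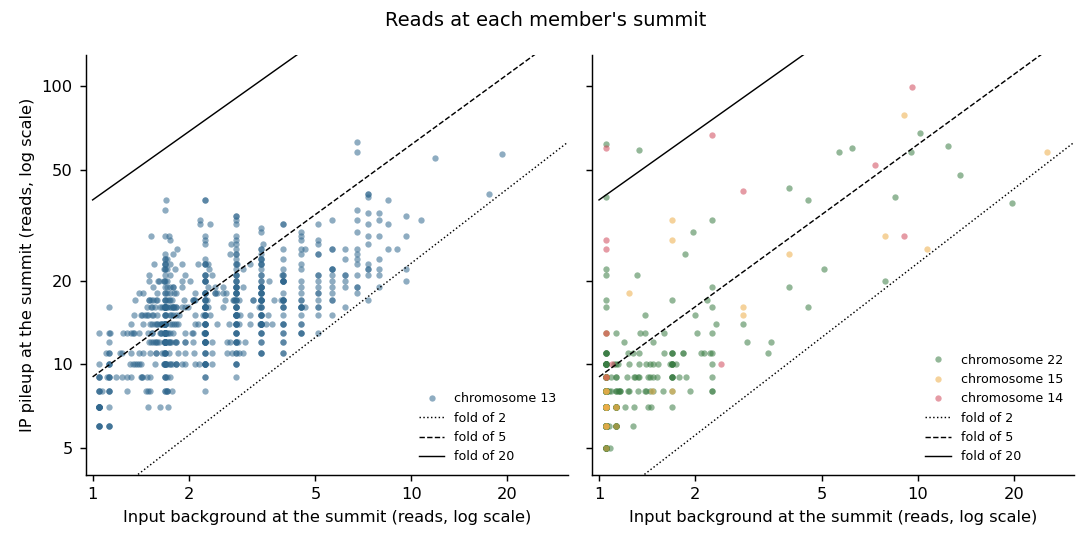
IP pileup against input background at each summit, both in reads on log scales, for chromosome 13 (left) and for chromosomes 14, 15 and 22 (right); lines mark folds of 2, 5 and 20. Chromosome 13 members lie mostly above the background floor of 1.05 and none reaches a fold of 20, whereas 5 members of chromosomes 14 and 22 do, 3 of them at the floor.

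Spacing differed between the arms. Joined where neighbouring summits were no more than 1 kb apart, the members formed 256 runs, and 14 runs of 10 or more held 564 of them. Of these 14 runs 12 were on chromosome 13, where the longest had 148 members over 64.0 kb (16376813 to 16440799) with a median fold of 5.20. On chromosome 13, 34 members (4.79%) stood alone, against 1 of 12 on chromosome 14, 17 of 30 on chromosome 15 and 96 of 260 on chromosome 22 (36.9%). The median distance between neighbours was 442 bp on chromosome 13, 734 bp on chromosome 14, 2642 bp on chromosome 15 and 1402 bp on chromosome 22. Alpha satellite, the main repeat of human centromeres, is built of monomers of near-constant length. Distances of up to 5 kb within 15 bp of a whole number of monomers made up 27.3% of 194 on chromosome 22 (exact interval 21.2% to 34.2%) and 19.7% of 699 on chromosome 13 (16.8% to 22.9%). They were 1 of 10 on chromosome 14 and 2 of 18 on chromosome 15. Even spread would give 18.1%, and the whole list had 19.4% of 17966. That even share takes every remainder as equally likely, which distances starting at 133 bp need not meet. No excess is therefore read from it. Neighbouring distances share summits, so they are not independent. Of the 842 members with a background above the floor, 183 had a partner on another of the 4 chromosomes with the same pileup and a background within 1%, in 223 pairs; small whole-number pileups can coincide, and whether these members share sequence was not analysed here.

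The annotation of these arms is sparse, and genes held few members. RefSeq lists no gene below the limits on chromosomes 13 and 15, 7 pseudogenes on chromosome 14, and 35 genes on chromosome 22, of which 28 are pseudogenes, 6 are long noncoding RNAs and 1 is a V segment. No protein-coding gene is among them. On chromosome 22, 7 of the 35 held a summit, and the 24 members in genes were 9.23% of the arm's members, while genes covered 10.5% of the distance between its first and last summit. No chromosome 14 member was in a gene. Genes covered 14.1% of the distance there, and 11 of the 12 members lay together between 16.09 and 16.1 Mb, beyond the last gene. The long noncoding RNA gene LOC105379418 (10742092 to 10753062), in the first block, held 9 summits with 7 to 13 reads and folds of 2.97 to 6.58. FRG1FP (10940597 to 10961529), a transcribed pseudogene of the FRG1 family, held 5 summits with 5 to 8 reads and folds of 2.93 to 4.39. LOC102723769 (11897406 to 11956534) held 5 with 7 to 9 reads and folds of 3.07 to 4.49, and LOC105379516 held 2, with folds of 3.41 and 3.90. FRG1GP, LOC101928041 and LOC107984037 held 1 each, with folds of 4.39, 3.90 and 3.37. Among these genes only LOC105379418 had a summit with a −log10 q of 5 or more. By family, as told by gene symbol, 2 of 2 FRG1 pseudogenes held a summit, 0 of 7 DUX4-derived pseudogenes and 0 of 2 ribosomal RNA pseudogenes. LOC110467520, the counterpart of RNA5-8SP by position, was not counted by symbol and held no summit. The lengths of the counted genes differ: 20.9 and 11.3 kb for FRG1, 0.94 to 1.46 kb for the DUX4-derived and 0.151 and 1.16 kb for the ribosomal RNA pseudogenes. These counts were not adjusted for length, so they show no preference between families. By symbol, no POTE, ANKRD, TPTE, BAGE, olfactory receptor, immunoglobulin heavy chain, LINC or miRNA gene and no TERF1 pseudogene is annotated below the 4 limits. Nothing could therefore be counted for these. Entries with LOC names, such as the V segment LOC124905154, were not sorted into families.

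Set beside the nearest kinds of peak, and with the 4 chromosomes pooled, the short arms lay between the centromere bands and the long-arm flanks. The 4 short arms had a median fold of 4.39 (4.38 to 4.56), against 4.71 (4.65 to 4.76) in the 3804 peaks of the 4 centromere bands and 3.90 (3.84 to 3.90) in the 136 peaks of the 2 Mb beyond them on the long arms. A fold of 5 or more was reached by 36.5% of members, 41.6% (40.04% to 43.2%) of centromere peaks and 9.56% (5.19% to 15.8%) of long-arm flank peaks. Chromosome 13 holds most peaks of both the short arms and the bands. Arm by arm, the share was 42.4% (38.7% to 46.1%) on the short arm and 44.7% (43.0% to 46.4%) in the centromere band of chromosome 13. It was 75.0% and 22.6% (9.59% to 41.1%) on chromosome 14, 6 of 30 (7.71% to 38.6%) and 16.2% (12.4% to 20.6%) on chromosome 15, and 20.4% (15.7% to 25.8%) and 33.3% (25.1% to 42.4%) on chromosome 22, short arm first. The exact intervals of short arm and centromere band did not overlap on chromosome 14, where the limit cuts through 1 series of strong peaks. These intervals count neighbouring summits as independent, and 11 of the 12 members lay between 16.09 and 16.1 Mb. They therefore do not establish a difference between arm and band. Against the short arm of chromosome 21, the remaining acrocentric, the 4 arms had a median fold of 4.39 against 4.23 (3.95 to 4.33) and a share of fold 5 or more of 36.5% against 27.0% (23.4% to 30.9%). Without chromosome 13 that share was 22.5%, and its interval overlapped that of chromosome 21. The listed density was 1425 per Mb on chromosome 13, 216 on chromosome 14, 118 on chromosome 22 and 60.7 on chromosome 15 between the first and last member, against 102 per Mb (93.6 to 111) on chromosome 21.

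**Figure D5:**
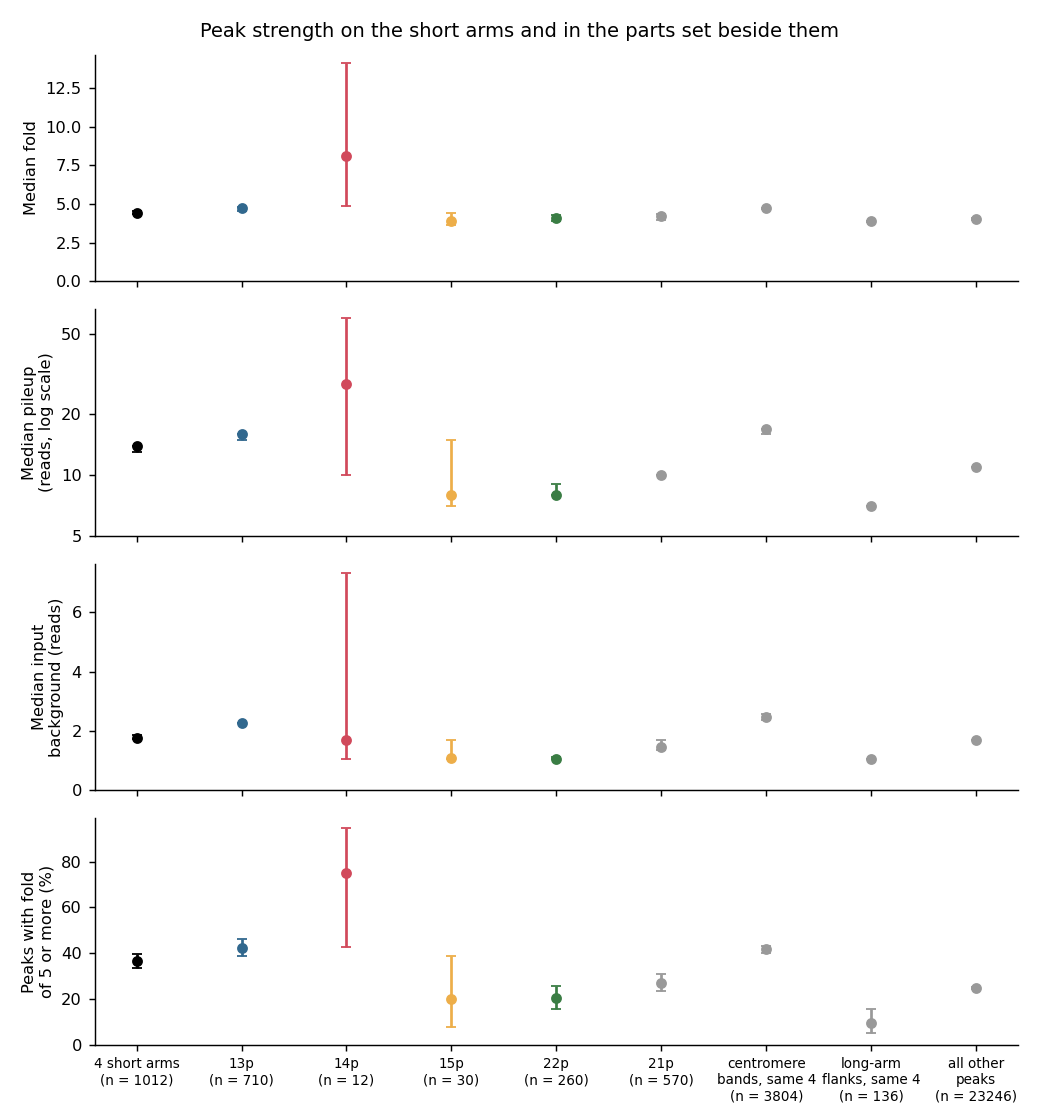
Median fold, median IP pileup (log scale), median input background and share of peaks with a fold of 5 or more, for the 4 short arms together and singly and for the peaks set beside them, with 95% order-statistic or exact binomial intervals (counting error only). The short arm of chromosome 14 lies highest in fold, at 8.14 with the widest interval, and that of chromosome 13 lies near the centromere bands of the same 4 chromosomes.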

How the data were processed

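The data were the authors' peak list of 1 TRF2 IP library over 1 input library; no other column of per-sample values was used. Tools listed in the submitters' processing notes are MACS2 2.1.0, Bowtie2 2.3.2, ChIPseeker 1.36.0 and HOMER, with builds hg38 and GRCh38. Their settings, and how duplicate and multiply placed reads were handled, are not stated there. The deposited file holds, per peak, a score (10 times the −log10 p, cut to a whole number), a fold ratio of IP over input background, and −log10 p and −log10 q values at the summit, as the authors' peak caller gave them; they were used to describe and rank peaks within the list.

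Pileup and background were recovered from fold and −log10 p with MACS2's formulas. A whole-number pileup matched 100% of peaks within 0.001 on −log10 p, with 1 solution for every member. In 1563 peaks simulated from this list's pileups and backgrounds, 100% of pileups were recovered. The simulation used the same formulas, so it checked the effect of rounding and not the formulas themselves. Library totals were not used here. Centromere bands came from circlize 0.4.16 (R 4.3.3) and genes from RefSeq GRCh38.p14, leaving out entries with positions on other sequences; coordinates are 1-based. No genome sequence was used, so the planned motif counts, GC content and sequence identity were not analysed, and density was taken between the first and last summit of an arm. Intervals are exact binomial, exact Poisson or order-statistic, at 95%. Named members were the 3 of highest fold and the widest per chromosome, those at the limits, the weakest, the longest runs and genes with a summit; all members of chromosome 14, the deepest members and the group near the pseudogenes, the 3 wide peaks of chromosome 22 were added after their values were seen. Members and lists were chosen with earlier results of these data known. Values were computed in pandas 2.3.3 and scipy 1.17.1 with numpy 2.4.6, under Python 3.11.15, and drawn with matplotlib 3.10.9. Other settings tried are given last.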

Additional observations from a re-analysis of the deposited data

How the results depend on the processing

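No paired analysis was possible because each group had 1 library. Taking a peak's position from the middle of its interval left all counts as they were. Keeping peaks with a q-value under 0.05 left 888 of 1012 members and raised the median fold to 4.70, the median pileup to 15 reads, the share with a fold of 5 or more to 41.6% and the share with a −log10 q of 5 or more to 42.5%. Members numbered 377 at a −log10 q of 5 or more and 369 at a fold of 5 or more. Without chromosome 13 the median fold was 4.09, the median pileup 8 reads, the median background 1.06, and the shares with a fold and a −log10 q of 5 or more were 22.5% and 17.2%. Without chromosome 22 they were 4.70, 16 reads, 2.26, 42.0% and 45.2%. Leaving out chromosome 14 or 15 kept these 5 values within the intervals of the full set. The count of runs followed the joining distance by construction, 524 at 500 bp and 91 at 5 kb against 256 at 1 kb. The share of members standing alone was 31.2% at 500 bp, 4.35% at 5 kb and, by an alternative chosen after seeing the data, 37.7% without chromosome 13, against 14.6%. The share of distances near a whole number of monomers was 11.5% within 8 bp, where even spread gives 9.94%, and 21.1% within 15 bp, where it gives 18.1%. Without chromosome 13 the second share was 25.2%. Even spread is only a rough mark for such distances. Members with 5 or 6 reads sit at the list's detection limit, and modelled or repeated sequence limits what a position means.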
